A study of Mus musculus with 16 samples.

Results

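The comparison described here set the heart against the liver of the same 4 wild type mice, as read counts per gene from RNA sequencing. The libraries were chosen by their labels as all wild type heart and all wild type liver libraries, which made 8 of the 16 libraries in the series. The mice were female, of the C57BL/6J strain and 3 to 6 months old, labelled WT for genotype, with no treatment. The other 8 libraries came from hearts and livers of 4 mice labelled Msr Quadruple Knockout (QKO), where Msr names the methionine sulfoxide reductases, and they served only to repeat the tissue comparison in other animals. Organs were frozen and extracted, so a library mixes the RNA of all cell types in the tissue extracted. Fewer cells of a type therefore cannot be told apart from less RNA per cell. The animal number in the labels was the same for the heart and the liver of a mouse, and heart and liver were therefore compared within animals.

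The heart is a pump of striated muscle cells, the cardiomyocytes, whose sarcomeres shorten when calcium released from the sarcoplasmic reticulum binds troponin, and which make nearly all their ATP in mitochondria, largely from fatty acids. The liver is built mainly of hepatocytes, which secrete most plasma proteins and bile, hold glucose level in the blood, detoxify drugs and turn ammonia into urea. Cardiac genes are driven by factors such as MEF2, SRF, GATA4, NKX2-5 and TBX5, and hepatocyte genes by HNF4A, FOXA and C/EBP proteins.

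Library totals were 42132175 to 72633124 counts in the hearts and 37881696 to 62530674 in the livers. The make-up of these totals differed between the organs. The annotated loci that hold nuclear ribosomal RNA sequence took 38.3%, 46.5%, 56.8% and 7.21% of the count in the hearts of animals 1 to 4, against 0.124%, 0.108%, 0.224% and 0.151% in their livers. Nuclear protein-coding genes took 12.2% to 31.8% of the count in the hearts and 50.9% to 64.7% in the livers, which left 6587028 to 23089651 counts on them per heart and 21229774 to 40186442 per liver. The mitochondrial ribosomal RNAs took 32.7% ± 10.7 (SD, n = 4) in heart and 23.8% ± 5.99 in liver, and the 13 mitochondrial mRNAs 3.11% ± 1.06 and 0.792% ± 0.172. With the nuclear ribosomal loci set aside, the hearts lay close together, at 53.2%, 52.3%, 52.2% and 51.2% for mitochondrial ribosomal RNA and 4.97%, 5.0%, 4.86% and 4.94% for mitochondrial mRNA. The exact two-sided sign-flip permutation test over 4 animals gave p = 0.13 for each of these shares, 2 of the 16 sign patterns, which is the smallest value that 4 pairs allow. The protein-coding gene Lars2, the antisense gene Gm15564 and the microRNA model Mir6236 followed the ribosomal share over the 8 heart libraries of the series on a log scale (Pearson r of 0.998, 0.999 and 0.996, with no test, since the points share the library and its ribosomal content). Lars2 stayed among the protein-coding genes tested but was left out of the shares of nuclear protein-coding genes. None of the 3 is reported as a tissue difference in the results that follow. Whether the unequal ribosomal share moved any gene result was not tested beyond the alternatives given with the counts.

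**Figure D1:**
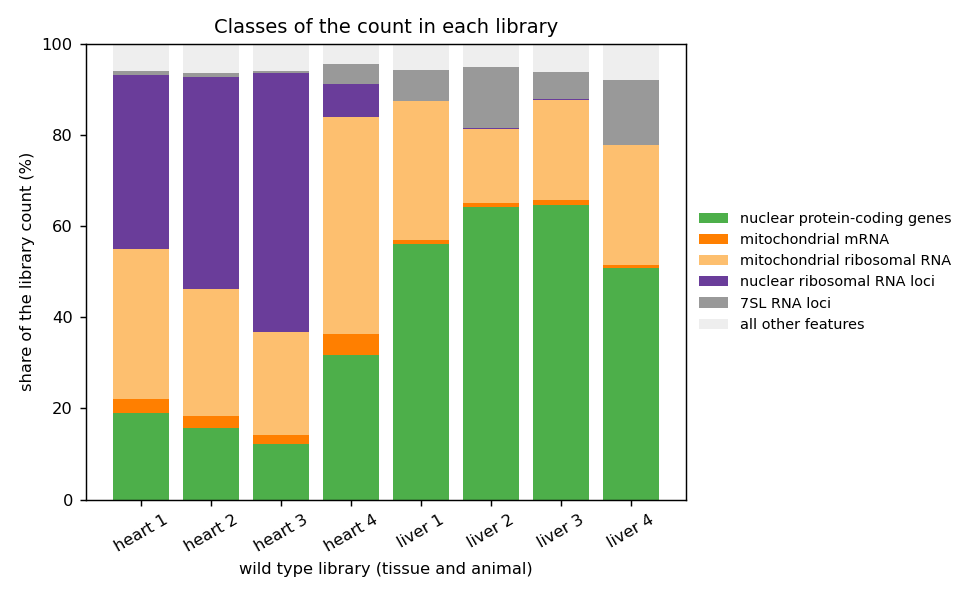
Share of the library count (%, y axis) taken by each class of gene in the 8 libraries (x axis). Nuclear ribosomal RNA loci fill 7.21% to 56.8% of the heart bars and at most 0.224% of the liver bars. Nuclear protein-coding genes without Lars2 fill 12.2% to 31.8% of the heart bars and 50.9% to 64.7% of the liver bars.

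The labelled organ was checked against marker genes. Levels are given as scaled CPM, counts per 1000000 after edgeR's TMM scaling, and changes as log2 fold changes of heart over liver from the paired quasi-likelihood fit. The 12 cardiomyocyte markers summed to 20500, 20550, 18720 and 18730 in the hearts and 32.5, 21.1, 15 and 63.5 in the livers. The 12 hepatocyte markers summed to 337, 227, 155 and 56.6 in the hearts and 38960, 44360, 34790 and 35970 in the livers. All 8 libraries thus matched their labelled organ, and the 24 markers were called in the labelled direction with the groups apart in each. Small amounts of the other organ's markers were nevertheless counted in every library, and the highest heart had 5.94 times the summed hepatocyte level of the lowest.

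**Figure D2:**
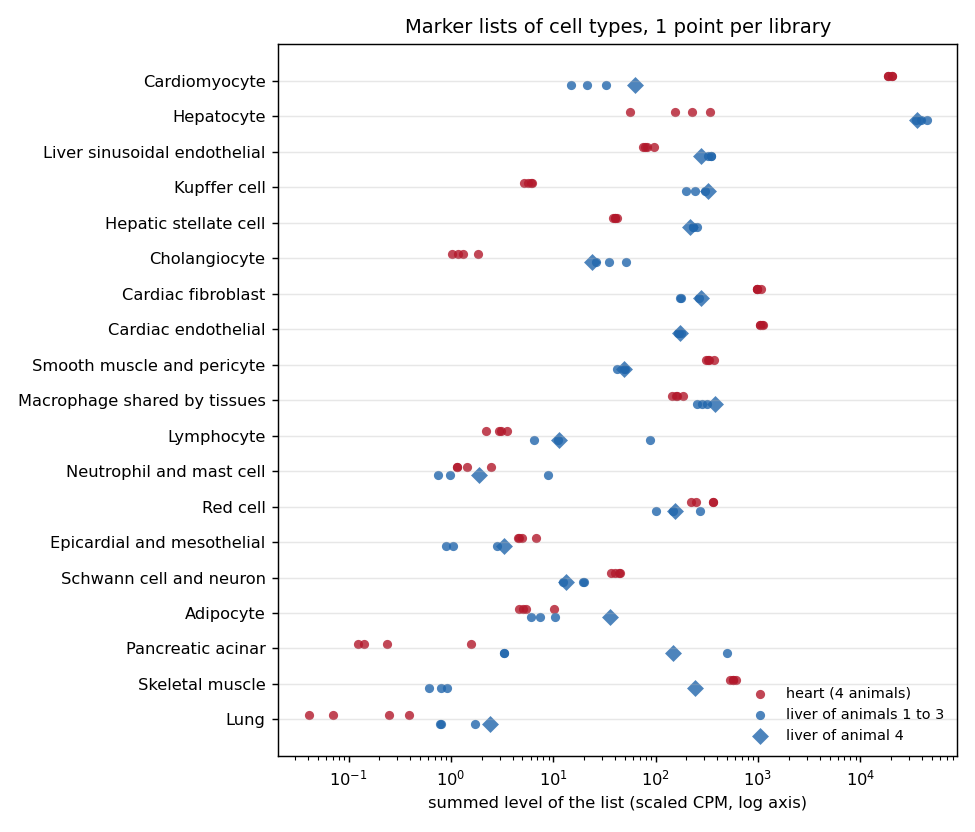
Summed level of each cell type marker list (scaled CPM, log axis) in the 4 hearts (red) and the 4 livers (blue), with the liver of animal 4 as a diamond. The cardiomyocyte points lie at 18720 to 20550 in heart and the hepatocyte points at 34790 to 44360 in liver, and the liver of animal 4 stands apart for skeletal muscle at 242.

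Among 18204 genes with enough counts to test, 6429 (35.3%) were higher in heart and 6601 (36.3%) were higher in liver at an adjusted p of 0.05 or less (edgeR quasi-likelihood test, Benjamini-Hochberg). Protein-coding genes alone gave 5174 of 14177 (36.5%) higher in heart and 5379 (37.9%) higher in liver, with a median log2 fold change of -0.03. With a fold of at least 4 as well, 1918 protein-coding genes (13.5%) were higher in heart and 1946 (13.7%) in liver. The tails were less even, since 125 protein-coding genes passed a log2 fold change of 8 in the heart direction and 216 in the liver direction. At the other end, 1161 protein-coding genes (8.19%) had a 95% interval of the log2 fold change that lay wholly within -0.5 to 0.5, and these are called genes at a like level below. The split between directions moved with the scaling. Upper-quartile scaling shifted the median of protein-coding genes by 0.18 and gave 7314 higher in heart and 5744 in liver (56.0% of calls in the heart direction, against 49.3%). Scaling to the summed count of nuclear protein-coding genes shifted it by 0.39 and gave 8460 and 4652 (64.5%). Here and wherever this scaling is used below, the sum kept Lars2. That gene took 2.88%, 3.56%, 3.42% and 0.661% of the count in hearts 1 to 4 and at most 0.00702% in the livers.

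The most abundant genes held unequal shares of the protein-coding count in the organs. With Lars2 left out, the 10 leading genes took 18.3% ± 0.569 of the nuclear protein-coding count in heart and 15.9% ± 0.929 in liver. The 100 leading genes took 38.8% ± 0.585 in liver and 33.6% ± 0.654 in heart, and 239.5 ± 19.3 genes held 50% of it in liver against 437 ± 21.8 in heart (SD, n = 4; exact permutation p = 0.13 for each of the 3, the smallest possible). The heart was thus higher over the 10 leading genes and the liver over the 100. Levels per kb of summed exon length were ranked with Lars2 again left out. The most abundant nuclear mRNAs of the heart were then Mb for myoglobin (1409 scaled CPM per kb), the ventricular light chain Myl2 (1386) and cardiac actin Actc1 (1270). In liver they were Alb for albumin (8120), the apolipoprotein Apoa2 (5180), the fatty acid binding protein Fabp1 (3530) and Apoe (2947). The mitochondrial mRNA mt-Co1, for cytochrome oxidase subunit 1, exceeded each of these nuclear mRNAs in heart at 17060 per kb. It stood at 3102 in liver, below Alb, Apoa2 and Fabp1.

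The tested contractile genes of 3 lists were all higher in heart. All 11 tested genes of the thick filament and its light chains, all 10 of the thin filament and all 16 of the Z-disc and costamere were higher in heart, with median log2 fold changes of 9.79, 8.36 and 7.74 against -0.03 over protein-coding genes. Without animal 4 the 3 medians were 10.68, 9.62 and 8.52. Myh6, the alpha myosin heavy chain that powers the adult mouse heart (chr14:54941921-54966927, GRCm38), measured 7074, 6577, 6221 and 6084 in the hearts and 8.71, 3.04, 2.46 and 9.87 in the livers. Its log2 fold change was 10.33 ± 0.57 (SE; adjusted p = 5.86e-07), and the lowest heart lay far above the highest liver. Tnni3, the inhibitory subunit of cardiac troponin (chr7:4518305-4524229), measured 1172, 1243, 1058 and 1113 in the hearts and 0.869, 0.604, 0.404 and 1.6 in the livers, a log2 fold change of 10.53 ± 0.45 (adjusted p = 1.45e-07), the largest among protein-coding genes at 100 scaled CPM or more. The hearts varied little for both genes, while the highest liver had 4.01 times the Myh6 level of the lowest and 3.97 times the Tnni3 level.

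Actc1 (chr2:114047282-114053548) measured 2266, 2120, 1824 and 2012 in the hearts and 2.3, 0.809, 0.713 and 3.33 in the livers, with a log2 fold change of 10.45 ± 0.55. Myosin binding protein C, Mybpc3 (chr2:91118144-91136516), measured 1169, 1215, 1125 and 1007 in the hearts and 1.41, 0.41, 0.607 and 1.82 in the livers, with a log2 fold change of 10.26 ± 0.54. Both genes were lowest in livers 2 and 3 and highest in liver 4. Titin, the spring of the sarcomere (Ttn, named after its values were seen), measured 25710, 25030, 24250 and 22580 in the hearts. In the livers Ttn measured 33.3, 10.4, 12 and 207, so that liver 4 stood apart from the other 3. The fold change of Ttn was 9.79 with all animals, 10.61 without animal 4 and 9.19 without animal 2. The beta myosin heavy chain Myh7, the slow form that prevails in the fetal ventricle, measured 132, 167, 125 and 158 in the hearts, and per kb of exon it averaged 16.9 there against 965 for Myh6. Thin filament calls fell from 10 to 8 when the animal was not used as a block.

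Promoters of 5 heart genes are shown because they hold the recognition letters of the factors that drive muscle genes. They were chosen after their matches had been seen, and a match describes letters and not binding. Each line gives the 120 bases before the RefSeq start site (GRCm38.p6), from 5′ to 3′ on the gene's strand, with motif matches in capitals. Actc1 (chr2:114052876-114052995, minus strand) and the ventricular light chain Myl3 (chr9:110763558-110763677, plus strand) hold a CArG box, the site of SRF, 47 and 85 bases before the start. Mybpc3 (chr2:91118024-91118143, plus strand) and Myoz2, for a Z-disc protein that binds calcineurin (chr3:123034988-123035107, minus strand), hold the MEF2 consensus at 90 and 33 bases. Nppb, for B-type natriuretic peptide (chr4:147985780-147985899, plus strand), holds an M-CAT motif (CATTCC, here on the opposite strand as GGAATG) at 105 bases, a GATA motif (AGATAA) at 84 and a TATA box (TATAAA) at 31.
Actc1: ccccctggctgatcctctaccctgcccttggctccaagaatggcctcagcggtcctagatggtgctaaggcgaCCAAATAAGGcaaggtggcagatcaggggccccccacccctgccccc
Myl3: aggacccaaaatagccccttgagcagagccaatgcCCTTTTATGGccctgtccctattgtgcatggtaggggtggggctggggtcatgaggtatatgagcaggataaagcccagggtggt
Mybpc3: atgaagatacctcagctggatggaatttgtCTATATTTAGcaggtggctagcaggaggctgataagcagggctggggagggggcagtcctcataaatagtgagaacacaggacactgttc
Myoz2: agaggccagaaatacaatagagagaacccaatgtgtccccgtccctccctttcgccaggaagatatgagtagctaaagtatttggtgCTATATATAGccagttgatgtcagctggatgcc
Nppb: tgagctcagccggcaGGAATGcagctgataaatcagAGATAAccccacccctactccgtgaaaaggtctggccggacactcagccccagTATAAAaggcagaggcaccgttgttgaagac
Over windows of 250 bases before to 50 after the start, the MEF2 consensus was found in 3.45% of 377 promoters of genes at least 16-fold higher in heart, 0.312% of 641 promoters of genes at least 16-fold higher in liver and 0.557% of all 32851 promoters. The CArG box was found in 4.24%, 1.40% and 1.63%. M-CAT stood at 18.3%, 16.1% and 14.7%, and the GATA motif at 11.1%, 13.7% and 11.2%. Over promoters of all tested protein-coding genes the MEF2 consensus, the CArG box, M-CAT and the GATA motif stood at 0.486%, 1.29%, 12.7% and 7.07%, so that M-CAT and the GATA motif were above that level in both groups. All motifs but the TATA box were searched on both strands, and the MEF2 consensus and the TATA box can share letters. The 16-fold gene groups took only called protein-coding genes with a mean of at least 10 scaled CPM in the higher organ, so they leave out less abundant genes. They held 357 and 671 genes, of which 272 and 517 had a promoter in the table.

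The genes of the Z-disc, which anchors thin filaments, included some of the largest differences. Actn2, the alpha-actinin that crosslinks actin there, measured 506, 516, 514 and 471 in the hearts and 0.566, 0.216, 0.309 and 4.48 in the livers. Tcap, which caps titin at the Z-disc, measured 210.1, 258, 184 and 206 in the hearts and 0.0808, 0.108, 0.0745 and 15.7 in the livers. Liver 4 was again the highest liver for both, and without animal 4 the log2 fold changes rose from 9.59 to 10.56 for Actn2 and from 9.33 to 11.22 for Tcap, while Tcap came to 8.52 without animal 2 and 8.68 without animal 3. Myl2, the ventricular regulatory light chain, measured 2607, 2960, 2610 and 2635 in the hearts and 2.4, 1, 0.915 and 12.5 in the livers, and its fold change rose in the same way from 10.26 to 11.02. The small heat shock protein Cryab measured 221, 244, 216 and 239.8 in the hearts and 0.707, 0.701, 0.724 and 3.96 in the livers with a fold change of 7.70 ± 0.51 (SE), the smallest of these 4, and 8.31 without animal 4.

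Calcium handling and excitation genes were nearly all higher in heart. Of 13 tested genes of calcium handling, 12 were higher in heart and 1 in liver, with a median of 8.26 (8.93 without animal 4, 7.59 without animal 2 and 7.67 without animal 3). Ryr2, the calcium release channel of the cardiac sarcoplasmic reticulum (chr13:11553102-12106945), measured 1540, 1495, 1529 and 1522 in the hearts and 1.76, 0.636, 0.713 and 2.1 in the livers, a log2 fold change of 10.37 ± 0.47 (SE; adjusted p = 1.93e-07). The highest heart was 1.03 times the lowest. Phospholamban, Pln, which restrains the calcium pump, measured 2010, 2040, 1763 and 1777 in the hearts and 4.97, 2.69, 2.34 and 4.16 in the livers, a log2 fold change of 9.13 ± 0.35. The pump itself, Atp2a2, was more widely expressed: it measured 4183, 4249, 3800 and 4291 in the hearts and 73.1, 67.5, 94.5 and 86.4 in the livers, so that its fold change of 5.69 ± 0.29 was smaller than that of Pln. Casq2, which stores calcium in the lumen, was higher in heart by 9.19 with all animals and 10.30 without animal 4. The exception was Itpr1, the inositol trisphosphate receptor used by many cells, at 41.9, 39.7, 38.4 and 38.2 in the hearts and 65.1, 52.2, 66 and 44.2 in the livers with a fold change of -0.51 ± 0.14 (adjusted p = 0.0102), a call that was lost under upper-quartile scaling (-0.32), under scaling to the nuclear protein-coding count (-0.11) and without animal 3 (-0.42).

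Among 17 genes of cardiac channels and junctions, 15 were higher in heart, with a median of 6.94 (7.62 without animal 4). Kcnip2, a subunit of the transient outward potassium channel, measured 39.4, 42, 41.8 and 41.5 in the hearts and 0.0202, 0.0324, 0.0213 and 0.106 in the livers, a log2 fold change of 9.84 ± 0.29 (SE) that was 10.54 without animal 4. The highest heart was 1.07 times the lowest for Kcnip2, and the groups lay far apart. The pacemaker channel Hcn4, which marks the small conduction system, was low in heart at 1.26, 1.36, 1.26 and 1.49, yet still 5.08 above liver on the log2 scale. The 2 members that were not called were the gap junction gene Gja5, at a like level in both organs (95% interval -0.49 to 0.43), and the sodium pump regulator Fxyd1 (-0.29, adjusted p = 0.0655).

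Cardiac transcription factors showed smaller differences than the contractile genes, with a median of 3.25 and 15 of 16 higher in heart. The homeobox factor Nkx2-5 measured 13.2, 14.5, 12.8 and 14 in the hearts and was at 0 counts in 3 livers and 3 counts in liver 4. Tbx5 measured 7.44, 6.91, 5.9 and 6.5 in the hearts and Irx4 7.35, 7.11, 7.16 and 6.75, and each had 1 count in all livers together. The SRF partner Myocd differed by 8.78. The zinc finger factors Gata4 and Gata6 were shared more widely. Gata4 measured 26.7, 30.2, 27.3 and 26.1 in the hearts and 3.43, 4.28, 6.53 and 5.34 in the livers, a log2 fold change of 2.52 ± 0.17. Gata6 differed by 2.94 ± 0.12, the MEF2 genes Mef2a, Mef2c and Mef2d by 2.26, 3.23 and 2.92, and Srf by 2.12. Ankrd1, a titin-bound nuclear cofactor that responds to load, was the most variable abundant factor among hearts at 172, 220.3, 279 and 148. Prox1 stands on both the cardiac and the hepatocyte factor list and was not called (-0.38, 95% interval -0.90 to 0.13).

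Of 9 secreted factors, 7 were higher in heart and 2 in liver. The natriuretic peptide gene Nppb measured 31.6, 68.4, 57.5 and 30.9 in the hearts and 0.0404, 0.0324, 0.0319 and 0.0454 in the livers. Nppa, its atrial relative, measured 23.3, 20.5, 18.7 and 7.83 in the hearts and had 3 counts in all livers together. Corin, the protease that activates the Nppa product, measured 91.6, 99.5, 94.6 and 96.9 in the hearts and 0.303, 0.572, 0.298 and 0.378 in the livers. The highest heart had 2.21 times the lowest for Nppb and 2.98 times for Nppa, but 1.09 times for Corin. The 2 exceptions were the stress cytokine Gdf15 (2.5, 2.31, 0.777 and 5.4 in the livers, fold change -3.93, and -3.34 without animal 4) and Bmp10, a ligand of the vascular ALK1 receptor, which measured 4.12, 4.82, 4.35 and 3.47 in the livers and had 3 counts in all hearts together. 

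Of 3 atrial genes named after their values were seen, each was lowest in heart 1 or 2. The atrial light chain Myl7 measured 0.237, 0, 15.1 and 2.59 in the 4 hearts, and it did not pass the count filter for testing. Its relative Myl4 measured 0.308, 0.576, 10.6 and 2.55 in the hearts and 0.283, 0.173, 0.213 and 0.212 in the livers, and sarcolipin, Sln, the atrial regulator of the calcium pump, 0.0237, 0.0411, 2.74 and 0.496 in the hearts. Heart 3 was highest and heart 4 next for all 3 genes, whereas Nppa, given above, was lowest in heart 4. The fold change of Myl4 was 3.20 ± 0.79 (adjusted p = 0.00582), 3.94 without animal 1 and 1.98 without animal 3, and it was not called without animals 3 and 4 (0.95, adjusted p = 0.217). The ventricular light chain Myl2 spanned 2607 to 2960 in the same hearts. The amount of atrium in each sample is not given in the labels, and its part in these values was not tested.

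The energy-buffer genes of muscle were all higher in heart, 6 of 6 with a median of 8.74 (10.03 without animal 4, 7.99 without animal 2 and 8.02 without animal 3). Ckm, the muscle creatine kinase, measured 530.4, 581, 472 and 539.8 in the hearts and 0.283, 0.183, 0.181 and 44.7 in the livers, and Mb for myoglobin measured 2156, 2262, 2001 and 1989 in the hearts and 2.32, 1.18, 0.915 and 36.3 in the livers. Ckmt2, its mitochondrial counterpart, measured 547, 552, 532 and 544 in the hearts and 0.768, 0.194, 0.17 and 19.1 in the livers. Liver 4 carried nearly all the liver signal of the 3 genes. The log2 fold changes were 9.90, 9.67 and 9.53 with all animals and 11.29, 10.61 and 10.73 without animal 4. They were 9.25, 9.05 and 8.71 without animal 3, and without animal 2 Ckm and Ckmt2 were 9.09 and 8.72. The SE of Ckm was 1.62 with all animals.

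In the liver, secreted plasma proteins led the list. All 21 tested carriers and acute phase proteins, all 12 apolipoproteins, all 21 coagulation and fibrinolysis genes and all 17 complement genes were higher in liver. Their median log2 fold changes were -8.13, -8.13, -8.00 and -7.09. Albumin (Alb, chr5:90460897-90476602) measured 216, 130.3, 84.8 and 31.8 in the hearts and 18790, 23760, 17360 and 16170 in the livers. Its log2 fold change was -7.65 ± 0.57 (SE; adjusted p = 3.64e-06), and the lowest liver was 74.7-fold above the highest heart. Transthyretin, Ttr, the carrier of thyroid hormone, measured 11.7, 12.3, 9.24 and 2.43 in the hearts and 2619, 2636, 2354 and 2140 in the livers, a log2 fold change of -8.30 ± 0.48 (adjusted p = 7.59e-07). For both genes the highest heart was that of animal 1 or 2 and the lowest that of animal 4, and the highest liver was 1.47 and 1.23 times the lowest.

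Heart 4 was the lowest for other hepatocyte genes too. The fibrinogen chain Fgb measured 13.4, 8.18, 8.01 and 2.5 in the hearts and 2747, 1716, 1849 and 2309 in the livers, a log2 fold change of -8.24 ± 0.51. Apoa2, of high-density lipoprotein, measured 15.7, 13.7, 10.7 and 3.82 in the hearts and 3255, 2853, 2501 and 2518 in the livers, a log2 fold change of -8.14 ± 0.44. Over the 178 members of the liver lists at 100 scaled CPM or more in liver, the median level in a heart was 0.859%, 0.654%, 0.447% and 0.200% of the mean liver level in animals 1 to 4. The folds of these genes rest on these low heart values, and the source of the hepatocyte sequence in the hearts was not tested. Apoe was an exception among apolipoproteins: it measured 92, 88.6, 79.4 and 74.8 in the hearts and 6372, 7487, 5545 and 5802 in the livers, so that its heart level was nearly level over the animals and its fold change of -6.23 ± 0.31 was the smallest of the 12. The complement gene C3 was similar, at 86.1, 56.5, 57.3 and 51.9 in the hearts and with a fold change of -5.41 ± 0.27.

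The largest liver differences among genes at 100 scaled CPM or more were in Serpina1e, an alpha-1-antitrypsin copy (0.735, 0.987, 0.316 and 0.146 in the hearts and 347, 406, 283 and 493 in the livers), and Lipc, the hepatic lipase (0.355, 0.329, 0.176 and 0.0901 in the hearts and 101, 112, 101 and 135 in the livers). Their log2 fold changes were -9.69 ± 0.56 and -9.06 ± 0.39 (SE), and -9.02 and -8.47 without animal 4, whose heart was the lowest for both. Apoc4 followed at -8.69, the carboxylesterase Ces1f at -8.66 and Haao, of tryptophan breakdown, at -8.55. The Serpina1 copies Serpina1c (-8.56) and Serpina1d (-8.48) are near-identical in sequence, so the division of reads between them is uncertain, and the same holds for the Mup genes. The transferrin gene Trf (-7.56) overlaps the gene model Gm20425, which had nearly the same levels, and reads of the pair could not be told apart.

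Promoters of 4 liver genes are shown for the hepatocyte factors, again chosen after their matches had been seen, as the 120 bases before the RefSeq start on GRCm38.p6 with matches in capitals. Alb (chr5:90460750-90460869, plus strand) holds a C/EBP motif (TTGCNNAA, here read on the opposite strand) 94 bases before the start. Fgb (chr3:83049864-83049983, minus strand) has a C/EBP motif at 80 and an M-CAT match at 9. Apoa2 (chr1:171224934-171225053, plus strand, 1 of 2 annotated starts) has a FOXA motif (TGTTTAC) at 77. Cyp8b1, the bile acid 12-alpha-hydroxylase (chr9:121916306-121916425, minus strand), has an HNF4 motif (CAAAGTCCA) at 67 and a TATA box at 31.
Alb: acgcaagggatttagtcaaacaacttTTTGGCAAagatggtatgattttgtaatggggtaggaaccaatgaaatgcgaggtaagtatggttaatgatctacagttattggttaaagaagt
Fgb: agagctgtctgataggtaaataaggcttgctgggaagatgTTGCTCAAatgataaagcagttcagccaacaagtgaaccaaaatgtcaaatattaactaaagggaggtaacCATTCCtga
Apoa2: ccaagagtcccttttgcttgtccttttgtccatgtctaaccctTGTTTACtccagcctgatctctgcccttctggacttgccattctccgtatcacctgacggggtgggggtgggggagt
Cyp8b1: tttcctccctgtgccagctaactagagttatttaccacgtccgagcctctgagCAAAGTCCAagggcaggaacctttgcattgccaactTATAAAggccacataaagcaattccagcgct
The gene groups were those used for the heart motifs, with the same floor on level. The HNF4 motif was found in 3.28% of promoters of genes at least 16-fold higher in liver, 0.265% of those at least 16-fold higher in heart and 0.475% of all promoters of the table. The C/EBP motif was found in 17.9%, 8.22% and 10.8%, and the FOXA motif in 6.08%, 2.12% and 3.65%. The TATA box stood at 12.3%, 10.1% and 8.32%, above the 4.81% of promoters of all tested protein-coding genes in both organs. Apart from the TATA box, which was searched on the gene's strand alone, matches on both strands counted, and none of these liver motifs contains another.

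Of 18 hepatocyte transcription factors, 16 were higher in liver, with a median of -6.20. Hnf4a, the nuclear receptor at the centre of the hepatocyte network, measured 2.27, 1.65, 1.16 and 0.676 in the hearts and 218, 247, 283 and 319.5 in the livers, a log2 fold change of -7.64 ± 0.43 (SE). Cebpa measured 2.61, 2.75, 2.77 and 2.67 in the hearts and 83.4, 133, 176 and 226 in the livers, a log2 fold change of -5.76 ± 0.27, and its highest heart was 1.06 times its lowest. The forkhead factor Foxa3 differed by -8.95, by -7.90 without animal 4 and by -9.97 without animal 1. The fatty acid receptor Ppara differed by only -1.39. Esrra, a nuclear receptor of mitochondrial genes, went the other way at 33.1, 33.8, 30.2 and 37 in the hearts and 11.4, 14.6, 13.5 and 18.9 in the livers, a log2 fold change of 1.22 ± 0.12.

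Metabolic genes of the liver differed nearly as much as the plasma proteins. All 22 genes of the cytochrome P450 list were higher in liver (median -7.88), as were all 17 tested conjugating transferases (median -7.76) and all 18 genes of bile acid synthesis and transport (median -7.00). Cyp2e1, which oxidises ethanol and other small molecules, measured 15.2, 10.2, 9.52 and 2.93 in the hearts and 1549, 1971, 1938 and 1104 in the livers, a log2 fold change of -7.62 ± 0.40. Cyp2c37, of the epoxygenase family, measured 3.65, 3.04, 1.61 and 0.575 in the hearts and 622, 582, 487 and 304 in the livers. Ugt1a1, the bilirubin glucuronosyltransferase, measured 3.98, 4.07, 3.02 and 1.36 in the hearts and 627, 723, 624 and 534 in the livers, although the Ugt1a genes share exons and Ugt1a9 had similar levels. The livers of animals 3 and 4 were lower than those of animals 1 and 2 for Cyp2c37, while Cyp2e1 was low in animal 4 alone. The electron donor of these enzymes, Por, differed least, by -3.39. In bile acid genes, Slco1b2, an uptake transporter, differed by -8.00 ± 0.40 and Cyp27a1, which is active in many cells, by -5.39 ± 0.21.

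All 11 urea cycle and ammonia genes were higher in liver (median -7.01). Cps1, the entry enzyme of the cycle, measured 20.9, 11.6, 7.69 and 2.86 in the hearts and 2895, 2385, 1637 and 1735 in the livers, a log2 fold change of -7.92 ± 0.46, and Arg1, which releases urea, measured 3.22, 2.38, 2.04 and 0.575 in the hearts and 767, 594, 439.5 and 555 in the livers, a log2 fold change of -8.35 ± 0.46. Glutamine synthetase, Glul, which the heart also uses, differed by -1.72, and the carrier Slc25a13 by -1.51. Of 24 amino acid catabolism genes, 23 were higher in liver (median -7.75), among them Mat1a, which makes S-adenosylmethionine from methionine, at 13.1, 10.2, 7.06 and 2.49 in the hearts and 2024, 2090, 1638 and 1242 in the livers. The exception was Got1, the cytosolic aspartate aminotransferase of the malate-aspartate shuttle, which measured 177, 177, 179 and 164 in the hearts and 111, 78.1, 57.7 and 58 in the livers, a log2 fold change of 1.25 ± 0.20. All 14 genes of gluconeogenesis and liver glycogen were higher in liver (median -7.14). Pck1, its rate-setting enzyme, measured 10.1, 7.44, 4.14 and 2.38 in the hearts and 1465, 1462, 921 and 867 in the livers, a log2 fold change of -7.77 ± 0.33.

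Lipid synthesis genes were lower in heart but less completely so. All 21 were higher in liver with a median of -5.08, and all 13 tested peroxisome genes with a median of -3.10. Fasn, the fatty acid synthase, measured 21.1, 17.3, 17.3 and 15.7 in the hearts and 726, 459, 546 and 581 in the livers, a log2 fold change of -5.01 ± 0.21. Scd1, which desaturates its products, measured 34.6, 13.4, 18.4 and 10.2 in the hearts and 3535, 1258, 1481 and 1918 in the livers, a log2 fold change of -6.77 ± 0.33. The peroxisomal catalase Cat measured 71.2, 76.6, 82.2 and 75.5 in the hearts and 733, 683, 637 and 453 in the livers and differed by -3.01 ± 0.21, while urate oxidase, Uox, differed by -8.21 ± 0.48. Of the 4 ketogenesis genes, 3 were higher in liver. Acat1, which also serves ketone use in heart, was not called (-0.41, adjusted p = 0.0836), and Bdh1, which works in both directions, differed by -2.20. All 17 hepatokine and hormone factors were higher in liver, from -8.48 for the thyroxine carrier Serpina7 (-7.56 without animal 4 and -9.52 without animal 1) to -1.74 for thrombopoietin, Thpo. Hepcidin, Hamp, measured 3.91, 0.658, 0.492 and 0.417 in the hearts and 268, 120.1, 139.6 and 231 in the livers, with heart 1 above the other hearts.

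**Figure D3:**
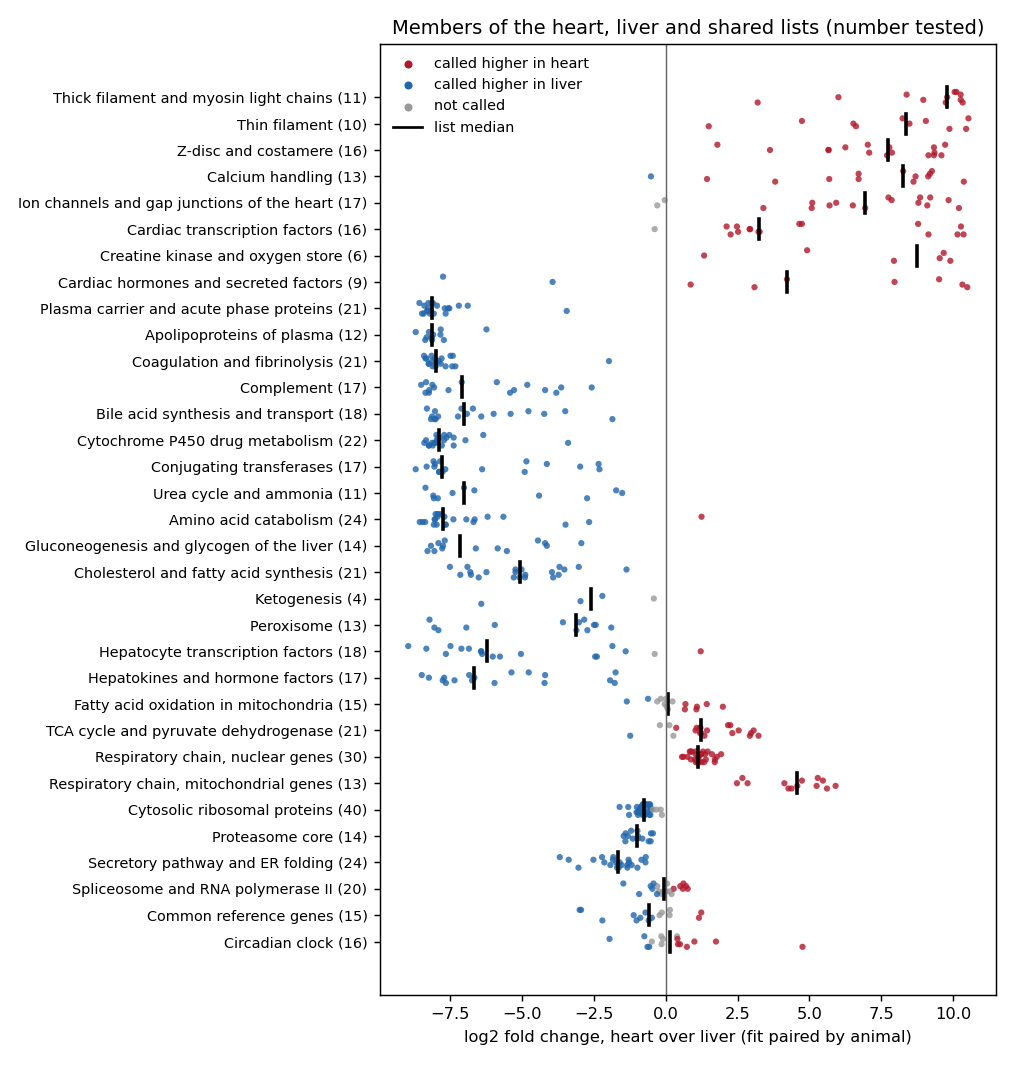
Log2 fold change of heart over liver (x axis) for each tested member of 33 lists (y axis, number tested in brackets), with called members in red or blue, uncalled ones in grey and the list median as a black bar. Contractile lists centre near 8 to 10, plasma protein lists near -8, and lists of functions that both organs carry out lie between -2 and 5.

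Energy metabolism was shared by both organs but not evenly. All 30 listed nuclear genes of the respiratory chain were higher in heart, each by less than 4-fold. Their log2 fold changes ran from 0.57 to 1.93 with a median of 1.14. The list leaves out the cytochrome oxidase subunits with a heart form, described with the pairs below. Of these, Cox6a2 (9.98), Cox8b (8.68) and Cox7a1 (6.99) were higher in heart by far more. Cox6a1 (-2.23) and Cox8a (-1.37) were higher in liver, and Cox7a2 (0.39) was not called. Atp5b, the catalytic subunit of ATP synthase, measured 1202, 1245, 1181 and 1263 in the hearts and 569, 624, 566 and 626 in the livers, a log2 fold change of 1.04 ± 0.20 (SE). Of 21 genes of the citric acid cycle and pyruvate dehydrogenase, 17 were higher in heart and 1 in liver, with a median of 1.24. Ogdh, of the oxoglutarate step, measured 617, 603, 633 and 628 in the hearts and 60.9, 58.9, 73.2 and 72 in the livers, a log2 fold change of 3.23 ± 0.19. The 2 beta subunits of succinyl-CoA ligase divided, since the ATP-forming Sucla2 was higher in heart (1.21) and the GTP-forming Suclg2 higher in liver (-1.23).

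Fatty acid oxidation showed no common direction. Of 15 mitochondrial genes, 6 were higher in heart and 2 in liver, beside 35.3% and 36.3% of all genes tested. Their median of 0.08 became 0.47, with 8 and 1 called, under scaling to the nuclear protein-coding count. Hadhb, the thiolase subunit of the trifunctional protein, measured 533, 548, 531 and 521 in the hearts and 115, 157, 151 and 119.5 in the livers, a log2 fold change of 1.99 ± 0.19. Acaa2, another mitochondrial thiolase for medium chains, measured 258, 258, 227 and 246 in the hearts and 511, 721, 621 and 678 in the livers, a log2 fold change of -1.35 ± 0.19. The thiolases thus lay on opposite sides with no overlap between organs. Hadh, the short-chain dehydrogenase, was at a like level (121, 115, 123 and 115 in the hearts and 109, 145, 121 and 113 in the livers). 

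The mitochondrial mRNAs differed more than the 30 listed nuclear genes of the respiratory chain. All 13 were higher in heart with the groups apart, and their median log2 fold change of 4.58 compared with 1.14 for those 30. The heart forms Cox6a2 (9.98), Cox8b (8.68) and Cox7a1 (6.99), which the nuclear list leaves out, differed more than any mitochondrial mRNA. The summed level of the mitochondrial mRNAs, of which mt-Co1 held most, was 7.896-fold higher in heart, against 2.255-fold for the 30 nuclear genes. Each mRNA counts alike in the median, and some were low in liver, such as mt-Nd4l at a mean of 0.285 in livers 1 to 3. mt-Co1 measured 25800, 29310, 26850 and 23430 in the hearts and 6065, 4604, 4814 and 3690 in the livers, a log2 fold change of 2.48 ± 0.35 (SE), the smallest of the 13. mt-Nd6, the only mRNA of the light strand, measured 990.4, 587, 696 and 248 in the hearts and 13.9, 8.44, 9.71 and 6.73 in the livers, the largest at 5.91 ± 0.27. Heart 4, which also had the lowest nuclear ribosomal share, was lowest of the hearts for mt-Nd6, mt-Nd1 (5325, 5033, 5422 and 3538) and mt-Cytb (4268, 4594, 4705 and 3000). The reverse held for mt-Co2, at 292, 167, 129.5 and 2743 in the hearts, and mt-Atp6, at 84.1, 91.7, 73.3 and 638, where heart 4 stood far above the others. Without animal 4 the fold change of mt-Co2 went from 4.74 to 3.97 and that of mt-Atp6 from 4.58 to 3.95. mt-Co3 was highest in heart 3 instead, at 287, 333, 631 and 267. Whether the ribosomal RNA share had a part in these values was not tested.

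**Figure D4:**
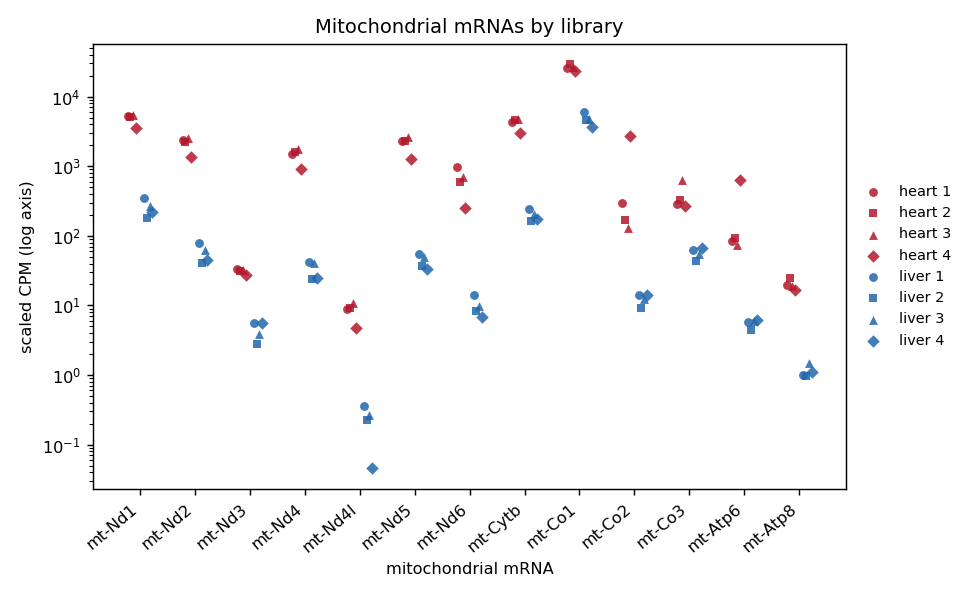
Level of the 13 mitochondrial mRNAs (scaled CPM, log axis) in each heart (red) and liver (blue), with a marker shape for each animal. All hearts lie above all livers for each mRNA, and heart 4 (red diamond) departs from the other hearts for mt-Co2 at 2743 and mt-Atp6 at 638.

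Many enzymes and carriers exist as a muscle or heart form and a liver or general form, and 22 such pairs were followed. In 19 of 22 pairs the heart form was called higher in heart and the other form higher in liver. Of all genes tested, 35.3% were called higher in heart and 36.3% in liver. The pairs were picked for this known division, with earlier results of these data known, so the count of pairs is no test of it. The share of the heart form within a pair, per kb of exon, was apart between the organs in all but Ppargc1a and Ppargc1b. With 4 animals each pair has an exact permutation p of 0.13, the smallest possible. For pyruvate kinase, Pkm made up 99.8% ± 0.107 of Pkm and Pklr in heart and 13.9% ± 6.46 in liver (SD, n = 4). For glucose transporters, Slc2a4 made up 99.2% ± 0.414 of Slc2a4 and Slc2a2 in heart and 1.25% ± 1.62 in liver, which was 0.444% without liver 4. Hearts and livers lay far apart for both pairs.

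In the mitochondria, Cpt1b, the muscle form of the carnitine transferase that admits fatty acids, took 95.5%, 95.5%, 95.7% and 96.4% in the hearts and 1.07%, 1.29%, 1.66% and 5.92% in the livers. The respiratory subunit Cox6a2 took 95.2%, 95.5%, 94.4% and 95.1% in the hearts and 0.205%, 0.095%, 0.129% and 3.95% in the livers of its pair with Cox6a1, and Cox8b took 85.9% ± 1.07 in heart and 1.63% ± 3.03 in liver against Cox8a. Without liver 4 the liver means fell to 1.34%, 0.143% and 0.114%. Cox7a1 took 73.3% ± 1.39 in heart, but its partner Cox7a2 was not called (0.39, adjusted p = 0.0738). The adenine nucleotide carrier Slc25a4 took 93.4% ± 0.797 in heart and 4.81% ± 5.84 in liver against Slc25a5, which was 1.89% without liver 4. Idh2, the mitochondrial isocitrate dehydrogenase, took 95.5% ± 0.436 of Idh2 and Idh1 in heart and 18.9% ± 3.96 in liver.

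In the cytosol, phosphofructokinase was less divided. Pfkm took 92.1% ± 0.658 in heart and 44.5% ± 7.55 in liver, and both Pfkm (4.91) and Pfkl (1.03) were higher in heart. Pgam2 took 96.9%, 96.7%, 95.7% and 96.3% in the hearts and 3.99%, 2.37%, 4.13% and 44.2% in the livers. Its liver mean of 13.7% ± 20.4 was set by liver 4 and was 3.5% without it. Of the lactate dehydrogenases, Ldhb took 77.3% ± 1.33 in heart and 1.39% ± 1.26 in liver, 0.768% without liver 4, while Ldha remained abundant in the hearts at 159.5, 167, 136 and 146. The acetyl-CoA carboxylase Acacb, which makes malonyl-CoA at the mitochondrial surface, took 96.1% ± 0.507 in heart and 31.7% ± 6.62 in liver against Acaca, which feeds fatty acid synthesis. The fatty acid binding proteins Fabp3 and Fabp1 differed by 9.30 and -8.30, and Fabp3 came to 10.37 without animal 4 and 8.65 without animal 3.

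The division reached the translation machinery. Eef1a2, the elongation factor of muscle and neurons, measured 242, 249, 239 and 248 in the hearts and 0.263, 0.0863, 0.17 and 3.28 in the livers, and Eef1a1, the form of most cells, measured 263, 264, 275 and 288 in the hearts and 2276, 2242, 1927 and 2207 in the livers. Eef1a2 made up 51.8% ± 1.09 of the pair in heart and 0.0517% ± 0.0841 in liver, 0.00966% without liver 4. The ribosomal protein Rpl3l, which replaces Rpl3 in striated muscle, made up 61.5% ± 3.36 in heart and 0.462% ± 0.668 in liver, 0.129% without liver 4. The coactivators Ppargc1a and Ppargc1b were both higher in heart, by 4.03 and 3.46, and their shares overlapped between the organs.

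**Figure D5:**
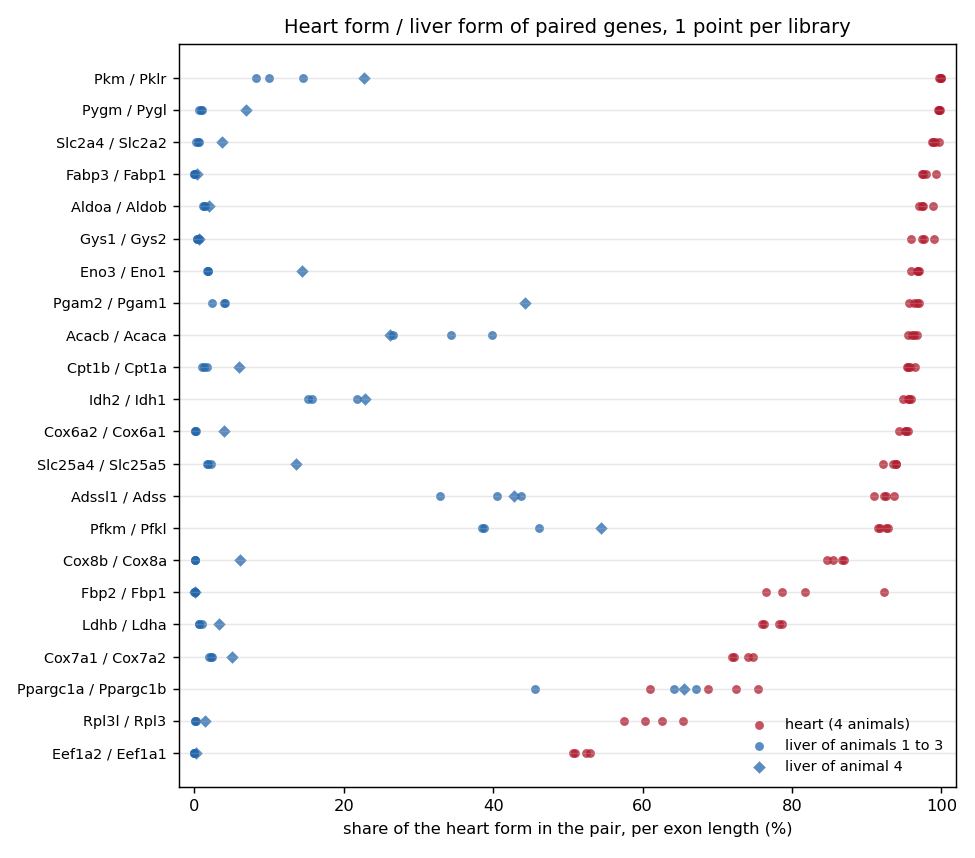
Share of the heart form in each of 22 gene pairs (%, per exon length, x axis) in the 4 hearts (red) and 4 livers (blue, liver 4 as a diamond). Hearts and livers lie apart in every pair but Ppargc1a and Ppargc1b, and liver 4 lies apart from the other livers for Pgam2 at 44.2%.

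Genes of general cell functions leaned to the liver on this scaling. All 24 genes of the secretory pathway were higher in liver (median -1.65), as were all 14 core proteasome genes (median -0.98) and 36 of 40 cytosolic ribosomal protein genes (median -0.74). P4hb, a protein disulfide isomerase, measured 59.8, 63.9, 54.8 and 59.1 in the hearts and 469.6, 556, 494 and 426 in the livers, a log2 fold change of -3.03 ± 0.18. The chaperone Hspa5 measured 137, 192, 136 and 162 in the hearts and 416, 427, 583 and 519 in the livers, a log2 fold change of -1.63 ± 0.21. Under scaling to the nuclear protein-coding count, 22 of 24, 10 of 14 and 14 of 40 were called, all still higher in liver, with medians of -1.25, -0.59 and -0.35. Of 20 spliceosome and RNA polymerase II genes, 6 were higher in heart and 6 in liver with a median of -0.04. These counts lay near the 35.3% and 36.3% of all genes tested. They turned to 10 and 2 with a median of 0.35 under scaling to the nuclear protein-coding count. Protein-coding genes had a median of 0.37 there, so the list moved as genes did in general.

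Common reference genes of expression studies were called in both directions. Of 15, 9 were higher in liver and 2 in heart, beside the 36.3% and 35.3% of all genes tested, and 4 and 6 were higher in heart and liver under scaling to the nuclear protein-coding count. Gapdh measured 68.7, 67.3, 64.8 and 67.5 in the hearts and 31.2, 29.2, 28.8 and 30.8 in the livers, a log2 fold change of 1.16 ± 0.12, and Actb measured 135, 153, 121 and 129.7 in the hearts and 238, 266, 307 and 275 in the livers, a log2 fold change of -1.01 ± 0.18. Beta-2-microglobulin, B2m, measured 70.1, 58.4, 67.9 and 82.3 in the hearts and 809, 480.5, 428 and 486 in the livers, a log2 fold change of -2.94 ± 0.23. These 3 kept their direction under each scaling tried. Hprt (-0.47 to 0.06), Ywhaz (-0.07 to 0.38) and Tfrc (-0.15 to 0.43) had 95% intervals within the band of like level, though Ywhaz and Tfrc were called higher in heart under upper-quartile scaling (0.34 and 0.32) and under scaling to the nuclear protein-coding count (0.55 and 0.53). The most abundant genes at a like level were the mitochondrial chaperone Hspa9 (201, 199.5, 224 and 192 in the hearts and 221, 235, 219 and 212 in the livers), ferritin heavy chain Fth1 (-0.09) and beta-catenin Ctnnb1 (0.09), of which Ctnnb1 was called higher in heart (0.48) under the latter scaling.

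Circadian genes were mixed, with 7 of 16 higher in heart and 4 in liver, beside 35.3% and 36.3% of all genes tested. Nr1d1, a repressor of the loop, measured 14.4, 17.3, 13.4 and 11.4 in the hearts and 4.99, 4.41, 3.86 and 3.48 in the livers, a log2 fold change of 1.75 ± 0.12. Bhlhe41 differed most, at 4.76. The output gene Dbp, whose level follows the hour of the day, measured 33.8, 44.3, 29.1 and 29.7 in the hearts and 30.7, 51.2, 33.8 and 37.4 in the livers and was not called (-0.15, adjusted p = 0.292). Arntl was low in all 8 libraries, from 0.379 to 1.16, and was not called (-0.14).

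Markers of non-parenchymal cells differed as well. Of 10 cardiac endothelial markers, 9 were higher in heart (median 5.19, and 6.18 without animal 4). Cd36, which takes up fatty acids, measured 689.5, 766, 712 and 677 in the hearts and 64.3, 58.3, 74.1 and 55.3 in the livers, a log2 fold change of 3.50 ± 0.20, although cardiomyocytes express it too. Aqp1, a water channel of endothelium in both organs, was not called (0.33). Of 10 markers of liver sinusoidal endothelium, 8 were higher in liver (median -3.15). The scavenger receptor Stab2 measured 1.16, 1.44, 1.02 and 0.417 in the hearts and 63, 72.1, 77.8 and 47.8 in the livers and the lectin Clec4g 0.308, 0.699, 0.211 and 0.203 in the hearts and 45.6, 38.9, 33.2 and 44.4 in the livers, log2 fold changes of -6.12 ± 0.23 and -7.04 ± 0.29. Lyve1, which also marks lymphatic vessels and some macrophages, was higher in heart (10.6, 10.8, 10.8 and 12.5 in the hearts and 4.42, 2.34, 4.76 and 9.06 in the livers; 1.25 ± 0.24).

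All 7 markers of Kupffer cells, the liver macrophages, were higher in liver (median -7.00), against 8 of 10 macrophage markers common to both organs (median -0.99). Clec4f, found on Kupffer cells, measured 0.498, 0.37, 0.316 and 0.135 in the hearts and 107, 95.1, 76.1 and 139.9 in the livers, a log2 fold change of -8.46 ± 0.39 that was -7.85 without animal 4. C1qa, a general macrophage gene, measured 16.3, 13.9, 14.3 and 19.9 in the hearts and 41.8, 33.5, 26.7 and 56 in the livers and differed by only -1.26 ± 0.13. The chemokine receptor Cx3cr1 went the other way, at 0.45, 0.699, 1.12 and 0.992 in the hearts and 0.364, 0.0755, 0.287 and 0.514 in the livers, a log2 fold change of 1.49 ± 0.46 that was not called without animal 2 or animal 3 (1.10 and 1.32). Fibroblast markers were higher in heart in 11 of 12 (median 2.42), with Gsn at 532, 503, 519 and 500.1 in the hearts and 20.9, 17.6, 19.4 and 50.1 in the livers and the collagen Col1a1 at 2.84. Decorin, Dcn, which stellate cells make as well, measured 187, 180.3, 240.5 and 201 in the hearts and 171, 102, 95.5 and 113 in the livers and differed by 0.78 ± 0.21, a call that was lost without animal 3 (0.59). Stellate cell markers were higher in liver in 8 of 9, and the exception Hand2 (2.48) is also a cardiac factor. Smooth muscle and pericyte markers were higher in heart in 7 of 10 and cholangiocyte markers higher in liver in 5 of 6. The exception among the latter, Sox9 (0.89), was not called without animal 2, 3 or 4 (0.73, 0.81 and 0.83), nor without the animal as a block (0.84, adjusted p = 0.0644).

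Some libraries held transcripts that belong to neither labelled organ. Liver 4 held skeletal muscle transcripts: the list summed to 0.808, 0.604, 0.926 and 242 in the livers, and fast troponin T, Tnnt3, measured 0.0202, 0.0108, 0 and 27.6. Skeletal actin, Acta1, measured 35.6, 26.6, 57.9 and 26 in the hearts and 0.0202, 0.0108, 0.0532 and 54.6 in the livers, so that liver 4 overlapped the hearts, and its log2 fold change was 6.62 with all animals (adjusted p = 0.0167) and 10.33 without animal 4. The call of Acta1 was lost without animal 1, 2 or 3 (6.05, 5.80 and 5.32) and without the animal as a block (1.42, adjusted p = 0.425). The fast light chain Mylpf was called higher in liver (-4.49, adjusted p = 0.0038) through liver 4 alone, and the call was lost without animal 4 (-1.27, adjusted p = 0.164). Genes of the heart lists were also higher in liver 4: the 41 at 100 or more in heart had a median of 0.141%, 0.0588%, 0.0628% and 1.12% of the heart level in livers 1 to 4. These lists are not restricted to the heart, since Ckm stands on the skeletal muscle list as well. The highest liver, liver 4, was 247 times the lowest for Ckm, but 3.97 times for Tnni3 and 4.01 times for Myh6. Tnni3, Myh6 and Nppb measured 1.60, 9.87 and 0.0454 there and 0.404 to 0.869, 2.46 to 8.71 and 0.0319 to 0.0404 in the other livers. Each was highest in liver 4, but Nppb was near 0 in every liver. The source of the heart-list transcripts in liver 4 was not tested.

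Livers 3 and 4 held pancreatic acinar transcripts, with list sums of 3.33, 3.28, 493 and 149 in the livers. Chymotrypsinogen, Ctrb1, measured 0.263, 0.0108, 77.6 and 25.5, and elastase 1, Cela1, 2.79, 3.1, 77 and 25.9. Cela1 passed the test (-7.50, adjusted p = 6.62e-07), and it stood at 2.79 and 3.10 in livers 1 and 2 while Ctrb1 was at 0.263 and 0.0108 there. Liver 3 also stood apart for the immunoglobulin gene Ighm (6.69, 3.21, 70.5 and 6.89) and the joining chain Jchain (1.43, 0.766, 8.74 and 0.863). Lymphocyte markers were higher in liver in 6 of 8 and in 5 of 7 without animals 3 and 4. Red cell genes were higher in heart in 6 of 7, but in 2 without animal 2, in 3 without animal 3 and in 3 in a test against a fold of 1.3, and the summed levels overlapped, at 251, 362, 221 and 366 in the hearts and 269, 149, 100.4 and 156 in the livers. The source of these transcripts was not tested. Without animals 3 and 4, 6087 genes were higher in heart and 6313 in liver.

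The animals agreed more closely in heart than in liver. Over 3198 protein-coding genes at 10 or more in both organs, the median SD of log2 level was 0.0917 in heart and 0.191 in liver. Among cholesterol synthesis genes, the livers differed for Hmgcs1 and Fdps. Hmgcs1, an early enzyme of the pathway, measured 236, 442, 117 and 46.2, and Fdps, which joins its isoprene units, 265, 386, 119.8 and 112. Livers 1 and 2 were higher than livers 3 and 4 for both. In heart, Hmgcs1 measured 12.1, 12.1, 12.8 and 9.88, and its highest heart was 1.29 times its lowest, against 9.58 times in liver. Bhmt, which remethylates homocysteine, was the most variable abundant liver gene at 1091, 2396, 379.8 and 216, with liver 2 highest. Cyp4a14, a target of the receptor PPARA, had another order at 138, 577, 1270 and 269, highest in liver 3. Cyp8b1 spanned 37, 74.1, 15.7 and 1.95, while Cyp7a1, the first enzyme of bile acid synthesis, measured 205, 155, 93.6 and 63.8, again highest in liver 1 or 2. All of these remained called higher in liver, with log2 fold changes of -3.72 for Hmgcs1, -8.03 for Bhmt and -8.04 for Cyp7a1.

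Other RNA classes leaned differently from protein-coding genes. Of 183 small nucleolar RNA genes tested, 107 were higher in liver and 5 in heart, with a median log2 fold change of -1.13. Of 421 long intergenic RNA genes, 161 were higher in heart and 112 in liver (median 0.26). Among protein-coding genes 36.5% were higher in heart and 37.9% in liver. Among named noncoding genes, B430119L08Rik measured 2.75, 2.43, 1.54 and 0.8 in the hearts and 449, 559.9, 364 and 536 in the livers, a log2 fold change of -8.10 ± 0.41, and heart 4 was its lowest heart. The 7SL RNA loci, of the signal recognition particle, took 0.473% to 4.49% of the count in hearts and 5.91% to 14.1% in livers. Strand use in the counting is not given in the sources used here, so antisense genes cannot be told apart from their partners.

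The Msr genes were counted in every wild type library. Msra measured 10.1, 11.2, 10.4 and 9.34 in the hearts and 58.2, 60.3, 52.5 and 47.7 in the livers, a log2 fold change of -2.41 ± 0.11 (SE; adjusted p = 2.39e-07). Msrb1, a selenoprotein, measured 15.7, 16, 14.9 and 13.7 in the hearts and 105, 101, 81.3 and 100.2 in the livers, a log2 fold change of -2.68 ± 0.14. Both were thus higher in every liver than in any heart. The mitochondrial Msrb2 measured 12.5, 14.5, 11.9 and 12.5 in the hearts and 4.85, 6.12, 4.11 and 2.48 in the livers and Msrb3 47.8, 47.9, 50 and 46.1 in the hearts and 10.7, 8.17, 8.39 and 7.67 in the livers, with log2 fold changes of 1.61 ± 0.18 and 2.47 ± 0.12 in favour of heart, and these groups did not overlap either.

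In the knockout libraries Msrb2 had 0 to 10 counts, against 164 to 1112 in wild type, and Msrb3 measured 26.4 to 31.6 per 1000000 nuclear protein-coding counts in heart and 3.82 to 7.35 in liver, against 177 to 189 and 18.8 to 24.8 in wild type. Msra and Msrb1 still had counts there, with Msra at 24.8 to 27.2 in heart and 74.2 to 83.5 in liver against 35.9 to 41.3 and 123 to 139. Msrb1 was at 68.2 to 84.0 in knockout heart against 52.8 to 59.1 in wild type. In liver it lay the other way with overlap, at 152 to 234 against 213 to 258. Which exons were removed is not given in the sources used here, so counts over whole genes check the labels for Msrb2 and Msrb3 alone.

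The knockout animals gave the same comparison in 8 libraries that share none with the wild type. Of 18039 genes tested there, 6648 (36.9%) were higher in heart and 6592 (36.5%) in liver. Of 13030 genes called in wild type, 12718 were tested in the knockouts, 11933 were called in the same direction and 3 in the opposite direction. The shared calls were 91.6% of the wild type calls and 90.1% of the 13240 knockout calls. Tnni3 was 10.53 in wild type and 10.58 in knockout, Ryr2 10.37 and 10.33, Alb -7.65 and -8.46, and Ttr -8.30 and -8.78. Over 17653 genes tested in both, the median absolute difference of the log2 fold changes was 0.184. A test of the difference itself, tissue by genotype in edgeR over all 16 libraries, called 0 of 19587 genes (0.0%), with 742 at an unadjusted p under 0.05 and a smallest adjusted p of 0.0753.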

How the data were processed

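Per the labels' protocols, RNA of frozen organs was extracted with Trizol and an RNeasy kit, depleted of ribosomal RNA, made into TruSeq Stranded Total RNA libraries and sequenced on a HiSeq 3000 as paired reads of 75 bases. The authors deposited 1 table of whole-number counts per gene for all libraries. The submitters' processing notes name CASAVA, bcl2fastq, FastQC, cutadapt, HISAT2, featureCounts, limma and the build mm10 (GRCm38), and the strand setting, the treatment of multiply aligned reads and the annotation release are not given in the sources used here. Of 48709 gene IDs, 48349 matched GENCODE M21 without the version suffix, which gave names, types, positions and summed exon lengths.

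The 8 libraries were filtered with filterByExpr, scaled by TMM and fitted with edgeR 4.0.16 in R 4.3.3 as a quasi-likelihood model of animal and tissue, with Benjamini-Hochberg adjustment over all genes tested. A gene was called at an adjusted p of 0.05 or less. Scaled CPM are counts per 1000000 of the TMM-scaled library, and a level per kb is that value over the summed exon length in kb. The standard error is the log2 fold change over the square root of F. The knockout libraries were fitted in the same way, and the difference between genotypes as an interaction. The pairing comes from the animal numbers in the labels. Over genes, deviations from the tissue mean correlated at 0.158, 0.0923, 0.118 and 0.116 between heart and liver of one animal and at -0.138 to 0.0521 between different animals. No 2 libraries of a group agreed within counting error (chi-square per gene of at least 57.1). Alternatives were other scalings, filters and tools (DESeq2 1.42.0, limma 3.58.1), no block, and each animal left out. Motifs were searched in RefSeq promoters of GRCm38.p6.

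The members and lists were chosen with earlier results of these data known. Named genes were those with the largest fold changes at 100 scaled CPM or more, the 3 most abundant called members of each list and up to 2 against it, both genes of each pair, the most abundant genes at a like level, long noncoding genes by level and the most abundant mRNAs per kb. Outside this rule, 52 of 187 genes were named after their values were seen. These were Acat1, Aqp1, Arntl, Bhlhe41, Bhmt, Bmp10, Col1a1, Ctrb1, Cyp4a14, Cyp7a1, Cyp8b1, Dbp, Fdps, Foxa3, Fxyd1, Gata6, Gja5, Glul, Hcn4, Hmgcs1, Hprt, Irx4, the MEF2 genes, the Msr genes, Myh7, Myl4, Myl7, Myocd, Myoz2, Por, Ppara, Prox1, Serpina7, Slc25a13, Sln, Srf, Sucla2, Tbx5, Tfrc, Thpo, Tnnt3, Ttn, Ywhaz, mt-Atp6, mt-Co2, mt-Co3 and mt-Nd6. Some genes, and the pairs and the motif tied to them, are not reported here. Whether the animals were littermates is not given. The p-values of the paired wild type fit rest on the spread of the heart-liver difference over these 4 animals, in part pooled over genes.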

Additional observations from a re-analysis of the deposited data

Results flagged for a closer look

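The levels of the genes and lists named, and the shares of the count, made 482 sets of 4 libraries of one organ. In 62 of them (12.9%) the gap of the highest or lowest library to the next, as a share of the whole range, exceeded Dixon's 95% critical value. Some genes were named after their values were seen, and list sums repeat their members. The share flagged therefore cannot be set against a chance level. Liver 4 was that library in 33 of them. The gap reached 1.00 in liver 4 for Acta1, Ckm, Irx4, Mylpf, Nkx2-5, Tcap and the summed skeletal muscle markers, which for Irx4 and Nkx2-5 is 1 and 3 counts against 0, 0.99 for Casq2, Cox8b, Cryab and Ldhb, 0.98 for Cox6a2 and Myoz2, and 0.97 for Ckmt2 and Myh7. It was 0.96 for Fabp3, Mb, Pgam2, Pkm and the creatine kinase list, 0.94 for Eef1a2, 0.93 for the thin filament list, 0.92 for Actn2, 0.91 for Slc25a4 and 0.90 for Gsn and Rpl3l. It was 0.88 for Ttn, 0.87 for Cidec and Myl2, and 0.86 for Kcnip2 and the adipocyte, thick filament and Z-disc lists. Each of these was highest in liver 4, at 54.6 for Acta1, 44.7 for Ckm and 242 for the skeletal muscle list. The part of the skeletal muscle transcripts in the other values was not tested.

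A gap of 1.00 for Tbx5 in liver 3 (0.0106) and for Sftpd in heart 4 (0.0113) was a single count against 0 in the other libraries of the organ, which shows nothing of the library. Liver 3 stood apart for Ighm (0.95), the lymphocyte list (0.94, at a sum of 88.6), Jchain (0.92), Wt1 (0.91) and Prox1 (0.89). Liver 1 did so for S100a9 (0.90), the neutrophil and mast cell list (0.86) and B2m (0.85, at 809), and liver 2 for the smooth muscle and pericyte list (0.87) and for Trf and the overlapping model Gm20425 (0.86 for both).

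Heart 4 stood apart for mt-Atp6 (0.97), mt-Co2 (0.94), the peroxisome list and the share of the 7SL RNA loci (0.90 for both), Lyve1 (0.89), Got1 (0.84) and Aqp1 (0.83). Heart 1 did so for Hamp (0.93, at 3.91), Pgam2 (0.88) and C3 (0.84). Heart 2 stood apart for Myl2 (0.92) and the nuclear respiratory chain list (0.83), and heart 3 for the cardiac fibroblast list (0.93, at a sum of 1066), the pancreatic acinar list (0.92), the adipocyte list (0.85) and Tbx18 (0.84).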

How the results depend on the processing

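The counts of genes called stayed within 1.5 times of 6429 and 6601 under each alternative run, at 5162 to 8460 higher in heart and 4652 to 7003 in liver, and leaving out one animal gave 5903 to 6183 and 6060 to 6570. Genes at a like level, 1161 with all animals, came to 708 under scaling to the nuclear protein-coding count and to 724 to 1021 with one animal left out, and DESeq2, limma-voom and the test against a fold of 1.3 gave no such count. With nuclear ribosomal loci set aside the mean heart shares were 52.2% for mitochondrial ribosomal RNA, 4.94% for mitochondrial mRNA and 30.6% for nuclear protein-coding genes. Without the animal as a block, 6476 and 6726 genes were called in wild type and 6707 and 6695 in the knockouts, and the pairing decided the calls of Acta1, Fxyd1, Sox9, S100a8 and S100a9 among named genes. Without it, neutrophil calls in liver went from 2 to 0, mesothelial calls in liver and cholangiocyte calls in heart from 1 to 0, channel and junction calls in liver from 0 to 1, and skeletal muscle calls from 2 in heart and 1 in liver to 1 and 2. Of 3092 values of named genes under an alternative, 3027 kept their direction and call, 31 lost the call, 21 gained one and 13 values of uncalled genes moved by more than their spread, while none of the called genes changed direction. Of 881 list medians under an alternative, 63 moved by more than the SD of the 4 animals' medians. Those genes that gained a call were Acat1, Aqp1, Cox7a2, Ctnnb1, Fxyd1, Tfrc and Ywhaz. Leaving the ribosomal loci out of the table, an alternative chosen after seeing the data, gave 6669 and 6618. Depth limits genes near 0 in one organ, where fold changes rest on a few counts.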

Other observations

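Minor cell types of the 2 organs left low but measurable transcripts. Of 9 listed markers of Schwann cells and neurons, 5 passed the count filter. All 5 were higher in heart (median log2 fold change 3.19, 2.55 without animal 2 and 3.86 without animal 3). The filter can pass a gene through 1 organ alone, so for genes near 0 in liver, such as Dbh, it largely set the direction. Dbh, which makes noradrenaline in sympathetic nerves, measured 0.9, 1.03, 0.457 and 0.484 in the hearts and 0, 0, 0.0319 and 0.0151 in the livers, a log2 fold change of 5.51 ± 0.75 (SE; adjusted p = 0.000168 by edgeR's quasi-likelihood test). Uchl1, a neuronal hydrolase, measured 2.04, 1.56, 1.69 and 1.79 in the hearts and 0, 0.0432, 0.0745 and 0.257 in the livers, a log2 fold change of 4.34 ± 0.58 that was 5.22 without animal 4, and that of Dbh was 4.83 without animal 2 and 6.84 without animal 3. The hearts lay above the livers for both genes without overlap.

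Of 5 tested markers of the epicardium and mesothelium, 2 were higher in heart and 1 in liver, the latter lost without animal 1, 3 or 4. The epicardial factor Wt1 measured 1.9, 1.48, 1.79 and 1.25 in the hearts and Tbx18 1.99, 1.73, 3.34 and 1.79, with log2 fold changes of 3.56 ± 0.47 and 6.96 ± 0.44, and that of Wt1 was 4.33 without animal 3. Wt1 was not absent from the livers, at 0.0606, 0.0647, 0.404 and 0.0908, with liver 3 the highest. Both neutrophil genes that could be tested, S100a8 and S100a9, were called higher in liver, with S100a8 at -1.93 and S100a9 at -1.97. Liver 1 held most of that signal, with S100a9 at 5.01, 0.399, 0.33 and 0.817, and neither was called without animal 1 (-1.54 and -1.15) or without the animal as a block (-1.86 and -2.20). Without animal 4 they came to -2.72 and -3.13. The adipocyte gene Cidec measured 0.19, 0.206, 0.702 and 0.282 in the hearts and 1.09, 1.36, 1.91 and 7.33 in the livers and was highest in liver 4, and of the lung list only Sftpd could be tested, at 1.27, 0.669, 0.341 and 1.12 in the livers and at most 0.0113 in the hearts.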
